A study of Mus musculus with 12 samples.

Results

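The expression of 7 genes of the class switch recombination machinery was followed through the differentiation of mouse B cells into plasmablasts: Ung, Apex1, Msh6, Pms2, Trp53bp1, Rif1 and Lig4. Their rows were taken from the series count table by the mouse Entrez identifier of each symbol, and all 7 of the 27179 rows were found and passed the filter on low counts, which left 12767 genes for testing. The cells came from the spleens of male C57BL/6 mice aged 6 to 12 weeks. RNA-seq was performed on 12 libraries, 2 biological replicates at each of 6 stages, and the total count per library ranged from 23026619 to 60585587. Naive cells were sorted for B cell surface markers, among them B220, IgM and high IgD, and against TCRβ, and received no stimulus. For the activated stages B cells were isolated by negative selection, labelled with the division dye CellTrace Violet (CTV) and cultured with 25 µg/ml lipopolysaccharide (LPS), a bacterial product that drives B cells to divide and to secrete antibody. Activated cells were taken at 3 h, 10 h and 33 h, and the sort kept undivided CD69+ cells with the highest CTV. The day-4 cells came from a separate long-term culture of negatively isolated cells, with LPS at the same concentration but a lower starting cell density. This culture was separated into plasmablasts, which had lost CD22 and gained CD138, and expanded B cells, which were CD22+ and CD138-, so the last transition compared cells taken from the same culture time. The stages therefore combined time, division history and a sort gate, with culture density added from 33 h to day 4, and these cannot be told apart.

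Class switch recombination exchanges the constant region of the antibody heavy chain. Cytosines in the switch regions in front of the constant genes are deaminated, and the resulting uracils are turned into double-strand breaks that are then joined over a long distance. Uracil is removed by the glycosylase Ung, and Apex1 cuts the DNA backbone at the abasic site. Msh6, a subunit of a mismatch recognition complex, and Pms2, a subunit of a complex that nicks DNA, provide a route to breaks through mismatch repair. Trp53bp1 and its partner Rif1 protect the ends from resection, and Lig4, with Xrcc4, seals them by non-homologous end joining.

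The gene positions below are RefSeq spans on GRCm38.p6. Ung (Entrez 22256) lies on chromosome 5 from 114130366 to 114139321, Apex1 (11792) on chromosome 14 from 50924949 to 50927188 and Msh6 (17688) on chromosome 17 from 87975050 to 87990892. Pms2 (18861) lies on chromosome 5 from 143909901 to 143972745, Trp53bp1 (27223) on chromosome 2 from 121194835 to 121296354 and Rif1 (51869) on chromosome 2 from 52072815 to 52126769. Lig4 (319583) lies on chromosome 8 from 9970020 to 9977680.

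Promoter windows running from 250 bases before to 50 bases after an annotated start were taken from RefSeq for 6 of the 7 genes. They were searched for CACGTG, the E-box bound by Myc and related factors, and for the E2F-type sites TTTCCCGC, TTTCGCGC, TTTGCCGC and TTTGGCGC, on both strands. Windows are shown for Apex1 and Ung, the genes with the steepest early rise, and for Msh6, which rose again before the first division. Each is printed 5′ to 3′ in the direction of the gene, all on the plus strand, and capitals mark a motif match.
Apex1, chr14:50924699-50924998: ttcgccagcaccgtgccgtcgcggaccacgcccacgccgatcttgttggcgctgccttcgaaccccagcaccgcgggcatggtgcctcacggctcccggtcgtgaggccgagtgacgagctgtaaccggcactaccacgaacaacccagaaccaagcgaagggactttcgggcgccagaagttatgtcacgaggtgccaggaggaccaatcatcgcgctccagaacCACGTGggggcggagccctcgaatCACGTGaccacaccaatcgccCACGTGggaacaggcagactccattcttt
Ung, chr5:114130185-114130484: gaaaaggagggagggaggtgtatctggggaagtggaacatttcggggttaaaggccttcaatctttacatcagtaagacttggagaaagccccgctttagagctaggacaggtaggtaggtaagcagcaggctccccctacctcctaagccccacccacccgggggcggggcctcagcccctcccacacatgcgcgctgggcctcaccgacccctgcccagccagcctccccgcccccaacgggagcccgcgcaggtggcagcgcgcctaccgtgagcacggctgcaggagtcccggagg
Msh6, chr17:87974800-87975099: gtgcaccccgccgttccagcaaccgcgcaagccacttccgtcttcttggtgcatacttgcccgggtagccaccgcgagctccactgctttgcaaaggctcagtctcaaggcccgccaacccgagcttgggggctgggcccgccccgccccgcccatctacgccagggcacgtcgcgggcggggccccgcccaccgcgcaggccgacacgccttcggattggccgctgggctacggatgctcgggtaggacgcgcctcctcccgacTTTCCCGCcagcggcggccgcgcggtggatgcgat
The Apex1 window held 3 copies of CACGTG, the first beginning 24 bases before the start, the next at the start base and the last 21 bases after it. Of 32851 windows of the same length, 7.15% held at least 1 copy and 29 (0.0883%) held 3 or more. The Ung window held neither motif. The Msh6 window held TTTCCCGC, beginning 15 bases after the start, and 2.26% of all windows held at least 1 E2F-type site. No match was found in the windows of Pms2, Trp53bp1 or Lig4. The Trp53bp1 window, from 121271358 to 121271657 on the minus strand, lies inside the gene span given above. The upstream end of that span, at 121296354, was not searched. A match describes these letters and was not tested as a binding site.

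Levels are given as RPKM, reads scaled to exon length and to TMM-adjusted library size, so that values can be compared between genes as well as between stages. They are relative to the other RNA in the library. As the libraries were bulk samples, a smaller number of cells expressing a gene and less RNA per cell cannot be told apart. Differentially expressed (DE) genes were those whose fold change was above 1.5 by edgeR's glmTreat, with a Benjamini-Hochberg adjusted p below 0.05 over all tested genes, and adjusted p-values below are from this test unless the F-test, which has no fold threshold, is named. Of the 7 genes, 4 were DE upwards from naive to 3 h (21.0% of all tested genes). None was DE from 3 h to 10 h (30.8% of all in either direction). Upwards, 1 was DE from 10 h to 33 h (10.1% of all) and 1 from 33 h to expanded cells (7.0%). From expanded cells to plasmablasts 3 were DE downwards (12.2% of all).

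**Figure D1:**
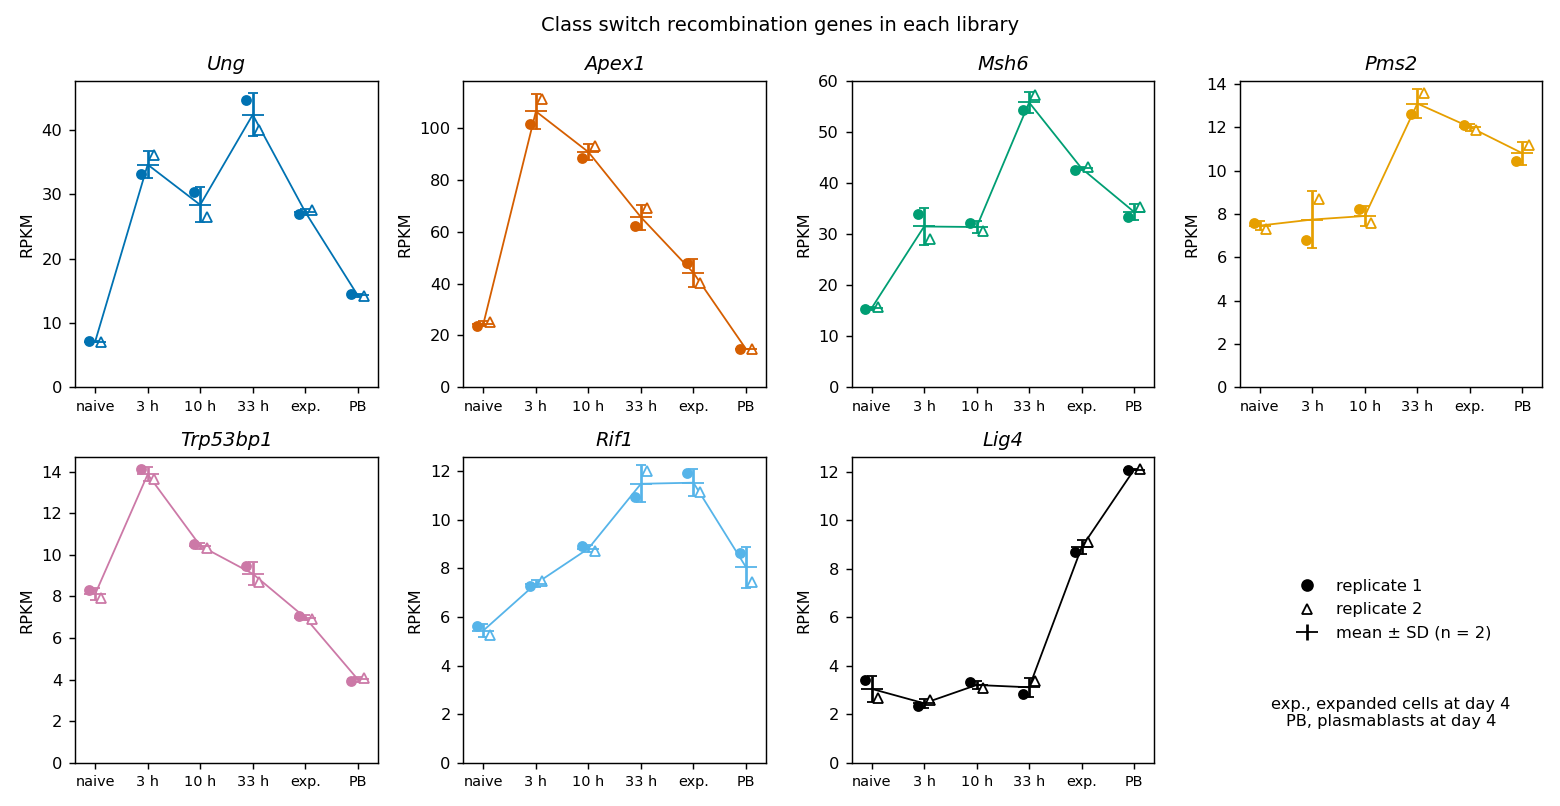
RPKM of the 7 genes (vertical axis, linear and starting at 0) in the 12 libraries by stage (horizontal axis); points are the libraries and bars the mean ± SD of n = 2. Apex1 (with TMM scaling) and Trp53bp1 were highest at 3 h, Ung, Msh6 and Pms2 at 33 h, and Lig4 in plasmablasts, at 12.1 RPKM, while the expanded and 33 h means of Rif1 were 11.5 and 11.5.

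Ung and Apex1, the base excision genes of the 7, had the largest rises of the 7 in the first 3 h. Ung measured 7.17 and 7.02 RPKM in the 2 naive libraries, 33.2 and 36.1 at 3 h, 30.3 and 26.5 by 10 h, and 44.8 and 40.1 at 33 h. At day 4 it measured 26.9 and 27.6 in expanded cells and 14.4 and 14.1 in plasmablasts. The naive libraries were below all others, and the plasmablast libraries were below every activated or expanded library. Ung rose 4.88-fold from naive to 3 h (log2 fold change 2.29, SE 0.10, adjusted p = 5.64e-09), a change larger than that of 94.97% of tested genes. The change between 3 h and 10 h (-0.29, SE 0.10) was found by the F-test (adjusted p = 0.0215) and was not DE, and its sign turned (0.041) with library sizes that were not TMM-scaled. The 33 h libraries were the highest of all, although the change from 10 h (0.58, SE 0.10) was not DE (adjusted p = 0.799). Plasmablasts had 1.91-fold less Ung than expanded cells (-0.93, SE 0.10, adjusted p = 0.00264). In plasmablasts the gene remained 2.01-fold above naive cells (1.01, SE 0.11, adjusted p = 4.34e-04), but with unscaled library sizes this last call was lost (0.72, adjusted p = 0.0732).

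Apex1 had the highest mean RPKM of the 7 genes at every stage but the last, where Msh6 was above it. It measured 23.7 and 25.1 RPKM in the naive libraries, 102 and 111 at 3 h, 88.6 and 92.9 by 10 h and 62.1 and 69.1 at 33 h. The day-4 values were 47.9 and 40.4 in expanded cells and 14.7 and 14.7 in plasmablasts. With TMM scaling, from 3 h on no library of a later stage reached any library of the stage before it. The rise to 3 h was 4.36-fold (log2 fold change 2.12, SE 0.10, adjusted p = 1.26e-08). Between 3 h and 10 h the F-test found no difference (-0.23, adjusted p = 0.0611), and with unscaled library sizes the change was 0.099 with the highest mean at 10 h, whereas the steps to 33 h (-0.47, F-test adjusted p = 0.00219) and to expanded cells (-0.57, F-test adjusted p = 7.63e-04) were detected without a fold threshold and were not DE. The fall into plasmablasts was 3.00-fold (-1.59, SE 0.11, adjusted p = 1.47e-06) beside 1.91-fold for Ung. Both plasmablast libraries lay below both naive libraries. That difference (-0.73, SE 0.11) missed the threshold at adjusted p = 0.0624, but passed it with unscaled library sizes (-1.02, adjusted p = 6.33e-04), with only the 4 libraries compared (adjusted p = 0.0119) and without 3 h replicate 2 (adjusted p = 0.0236).

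Apex1 starts 55 bases from Osgep, a gene for a tRNA modification enzyme that runs the other way, and the promoter window above covers both starts. Osgep measured a mean of 25.1 RPKM before stimulation and 18.0 after 3 h and was not DE (log2 fold change -0.48, SE 0.10, adjusted p = 0.855), so of these neighbours Apex1 was DE and Osgep was not. On the other side, 877 of the 1422 exonic bases of Apex1 in GENCODE M21 (61.7%) are also exonic in Pip4p1 on the opposite strand. Counting used a different annotation, in which Apex1 had an exon length of 1307 bases. The library kit was taken as one that does not mark strand, and the strand setting of the counting is not given in the sources used here. On that reading, reads over shared bases cannot be assigned to either gene by strand. The RefSeq spans of the pair are separated by 26 bases, and Pip4p1 had a mean of 23.5 RPKM before stimulation and 14.0 after 3 h (-0.74, SE 0.12, adjusted p = 0.0736).

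Of the mismatch repair genes, Msh6 rose by 3 h and again by 33 h. It measured 15.3 and 15.7 RPKM in the naive libraries, 34.0 and 29.0 at 3 h, 32.2 and 30.6 by 10 h and 54.4 and 57.3 at 33 h. Expanded cells had 42.6 and 43.2 and plasmablasts 33.3 and 35.4. Msh6 thus rose in 2 steps with a plateau between, and its 33 h libraries lay above all others. The first step was 2.03-fold (log2 fold change 1.02, SE 0.09, adjusted p = 1.32e-04), the plateau had a change of 0.00 (SE 0.09; 0.33 with unscaled library sizes), and the second step was 1.78-fold (0.83, SE 0.09, adjusted p = 0.0167). The second call was lost without 10 h replicate 2 (adjusted p = 0.104), without 33 h replicate 2 (adjusted p = 0.0692) and by the DESeq2 Wald test (adjusted p = 0.0547), with the direction kept each time. Plasmablasts stayed 2.22-fold above naive cells (1.15, SE 0.09, adjusted p = 1.18e-05). Fbxo11 on the opposite strand shares 34 (0.78%) of the exonic bases of Msh6 in GENCODE M21. Its mean was 19.5 RPKM in naive cells and 90.0 at 3 h (2.20, SE 0.13, adjusted p = 8.28e-08). The part of the shared bases in the first step of Msh6 was not tested.

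Pms2 did not respond in the first hours. The naive libraries had 7.61 and 7.33 RPKM, the 3 h libraries 6.81 and 8.68 and the 10 h libraries 8.24 and 7.58, with values overlapping between all 3 stages. At 33 h it measured 12.6 and 13.6, in expanded cells 12.1 and 11.9 and in plasmablasts 10.4 and 11.2. With TMM scaling the 6 later libraries were all above the 6 earlier ones. With unscaled library sizes, plasmablast replicate 1 (8.90 RPKM) lay below 10 h replicate 1 (9.22). None of the consecutive changes of Pms2 was DE, the largest being that from 10 h to 33 h (log2 fold change 0.73, SE 0.11, adjusted p = 0.191, F-test adjusted p = 2.37e-04). Over the whole interval from naive to 33 h the gene rose 1.75-fold (0.81, SE 0.12, adjusted p = 0.0252). This call was lost in 7 of 23 alternative analyses, among them the DESeq2 Wald test (adjusted p = 0.399) and analyses without naive replicate 2 or without 33 h replicate 2. Pms2 starts 61 bases from Aimp2, a component of the tRNA synthetase complex, whose mean RPKM of 20.6 before stimulation rose to 91.0 by 3 h (2.15, SE 0.13, adjusted p = 7.23e-08) while Pms2 changed by 0.06 (SE 0.12). On the same strand, Gm42421 shares 394 (4.85%) and Rsph10b 85 (1.05%) of the exonic bases of Pms2 in GENCODE M21. The part of these shared bases in the levels of Pms2 was not tested.

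The end-protection partners Trp53bp1 and Rif1 took different courses. Trp53bp1 measured 8.31 and 7.91 RPKM in the naive libraries, 14.1 and 13.6 at 3 h, 10.5 and 10.3 by 10 h and 9.47 and 8.70 at 33 h. In expanded cells it measured 7.06 and 6.90, and in plasmablasts 3.94 and 4.09. The gene was highest at 3 h and lowest in plasmablasts, with no overlap of either group with any other stage. The early rise was 1.71-fold (log2 fold change 0.77, SE 0.08, adjusted p = 0.0144), and the fall from expanded cells to plasmablasts was 1.74-fold (-0.80, SE 0.09, adjusted p = 0.0162). Both were near the fold threshold: the rise was lost in 6 of 23 alternative analyses, for example without naive replicate 2 (adjusted p = 0.0659), and the fall in 4 of 23, namely without expanded replicate 1, plasmablast replicate 1 or plasmablast replicate 2 and by the DESeq2 Wald test. The difference between naive cells and plasmablasts, 2.02-fold lower in plasmablasts (-1.02, SE 0.09, adjusted p = 8.51e-05), held in every alternative. Tubgcp4 on the opposite strand shares 2130 (15.04%) of the exonic bases of Trp53bp1 in GENCODE M21, which was not the annotation used for counting. With the kit taken as not marking strand, reads over these bases cannot be assigned to either gene by strand. Tubgcp4 had a mean of 5.73 RPKM in naive cells and 9.51 at 3 h (0.73, SE 0.12, adjusted p = 0.0865), a change close in size to that of Trp53bp1, and its mean went from 12.0 RPKM in expanded cells to 10.9 in plasmablasts. The part of the shared bases in the early rise of Trp53bp1 was not tested.

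Rif1 measured 5.61 and 5.26 RPKM in the naive libraries, 7.25 and 7.48 at 3 h, 8.90 and 8.71 by 10 h and 10.9 and 12.0 at 33 h. It measured 11.9 and 11.1 in expanded cells and 8.64 and 7.45 in plasmablasts. Up to 33 h every library lay above those of the stage before, and the 33 h and expanded libraries overlapped. None of these steps was DE on its own, and the sum of them, from naive to 33 h, was a 2.11-fold rise (log2 fold change 1.08, SE 0.10, adjusted p = 9.61e-05) that held in every alternative. The drop into plasmablasts (-0.52, SE 0.10, F-test adjusted p = 4.74e-04) was not DE, but was called with unscaled library sizes (-0.86, adjusted p = 0.00863). Over the same step Trp53bp1 fell by 0.80 on the log2 scale. The difference between the 2 genes was not tested.

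Lig4 was the only one of the 7 that was DE upwards from 33 h to day 4. It measured 3.43 and 2.67 RPKM in the naive libraries, 2.32 and 2.58 at 3 h, 3.33 and 3.08 by 10 h and 2.84 and 3.38 at 33 h. Expanded cells had 8.68 and 9.09 and plasmablasts 12.1 and 12.1. The 8 early libraries all lay between 2.32 and 3.43 RPKM, and the 4 day-4 libraries lay above them without overlap. Lig4 rose 2.86-fold from 33 h to expanded cells (log2 fold change 1.52, SE 0.13, adjusted p = 4.75e-05). The further difference between expanded cells and plasmablasts (0.44, SE 0.13) was detected by the F-test (adjusted p = 0.00907) and was not DE. With unscaled library sizes this difference was 0.11, between means of 9.51 RPKM in expanded cells and 10.2 in plasmablasts. Plasmablasts had 3.95-fold more Lig4 than naive cells (1.98, SE 0.13, adjusted p = 1.70e-07), and both day-4 calls against 33 h and naive cells held in every alternative.

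Across the stage orders of the 7 genes there were 35 pairs of neighbouring stages, and in 19 of them the F-test found a difference while in 16 it did not. Ung ran, from the highest, 33 h, 3 h, 10 h, expanded, plasmablast and naive, with 3 h and 10 h in the other order without TMM scaling, and of these neighbours 10 h and expanded were not separated (adjusted p = 0.631). For Lig4 none of the 3 neighbouring pairs within the lower 4 stages was separated. For Pms2, with TMM scaling, the upper 3 and the lower 3 stages formed separate sets. Plasmablasts and 10 h were its only neighbouring pair that differed (F-test adjusted p = 0.00343), and with unscaled library sizes the libraries of that pair overlapped.

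In the first 3 h, 4 of 7 genes rose (Ung, Apex1, Msh6 and Trp53bp1) and none fell, where 21.0% of all tested genes rose and 24.3% fell (45.3% in either direction). The F-test found 5 of 7, and 71.0% of all genes. The median log2 fold change of the 7 was 0.77 against -0.03 for all genes. From 3 h to 10 h none of the 7 was DE, where 30.8% of tested genes were, and the F-test found 4 (62.3% of all genes). The DESeq2 Wald test against 1.5-fold found 0 as well, and by glmTreat 0 had an unadjusted p below 0.05. From 10 h to 33 h Msh6 alone was DE, where 10.1% of genes rose and 14.5% were DE, and the F-test found 5 (45.4% of all genes). From 33 h to expanded cells Lig4 alone was DE, where 7.0% rose and 10.7% were DE, and the F-test found 5 (39.8%). From expanded cells to plasmablasts Ung, Apex1 and Trp53bp1 fell, 3 of 7 where 12.2% of genes fell and 26.2% were DE, the F-test found 6 (57.0%), and the median of the 7 was -0.52 against -0.05 for all genes. Over the whole course before division, from naive to 33 h, 5 of 7 rose (Ung, Apex1, Msh6, Pms2 and Rif1), where 22.3% of genes rose, 20.7% fell and 43.0% were DE, and the F-test found the same number (70.9%). From naive cells to plasmablasts 3 rose (Ung, Msh6 and Lig4), where 26.6% of genes rose, and Trp53bp1 fell, where 23.4% fell and 50.0% were DE. The F-test found all 7 (74.1%). With 7 genes chosen with earlier results known, these shares are descriptive. The transitions share stages, so their counts are not independent.

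**Figure D2:**
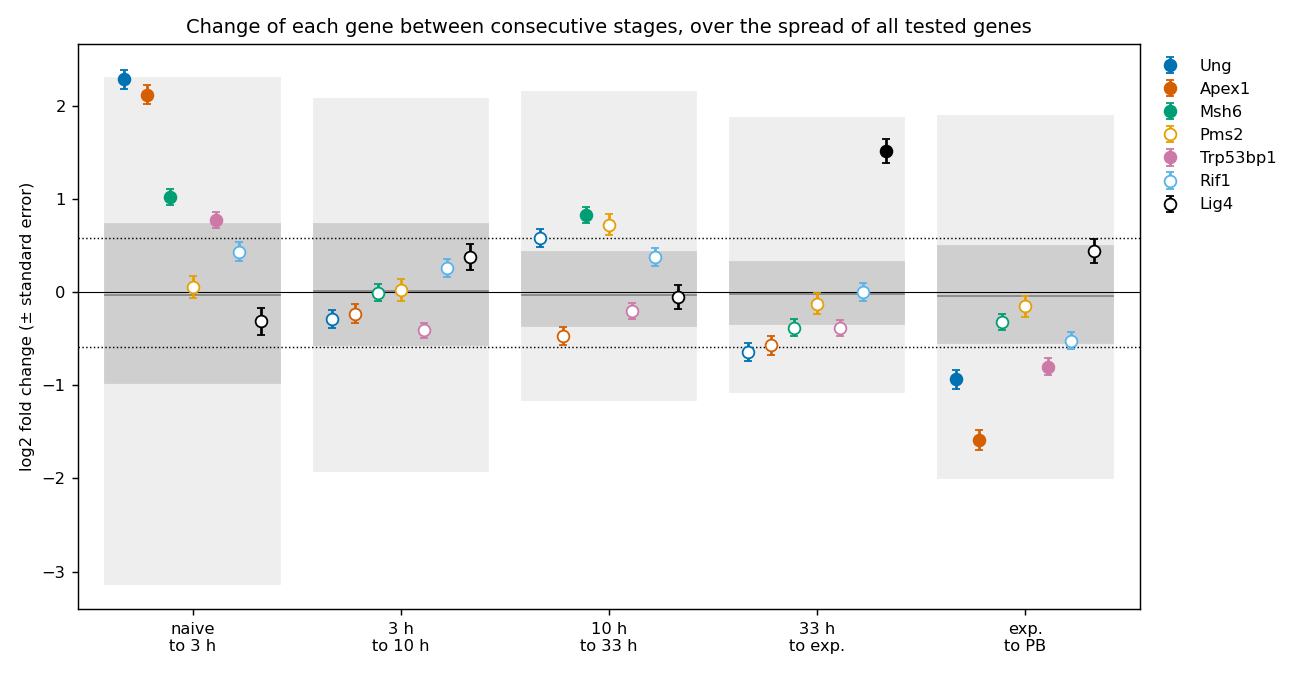
Log2 fold change ± SE of the 7 genes (vertical axis) at the 5 consecutive transitions (horizontal axis; exp., expanded cells; PB, plasmablasts); filled points are DE and dotted lines mark a 1.5-fold change. Dark and pale grey bands span the middle 50% and 90% of all tested genes with the median as a line; Ung at 2.29 and Apex1 at 2.12 lie near the top of the pale band in the first transition, and Lig4 at 1.52 stands above the dark band at 33 h to expanded.

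The naive libraries held transcripts of marker genes of other cell types, which touches each comparison with naive cells. The 6 myeloid markers summed to 182 and 90.4 CPM (counts scaled to a common library size) in the naive libraries and to between 4.78 and 45.2 CPM in the other 10. Lyz2, a defining myeloid gene, measured 141 and 60.2 RPKM in naive cells and at most 0.0622 RPKM elsewhere, and Csf1r, Mpo and Lyz2 were each at 3 counts or fewer in every later library. The other myeloid markers did not share this pattern. Cd68 had a mean of 5.19 RPKM in naive cells and 18.4 in plasmablasts, Itgam 1.69 in naive and 5.17 in expanded cells, and Adgre1 3.75 in naive and 4.28 in expanded cells. The 5 erythroid markers that were not X-linked summed to 196 and 146 CPM in naive cells and to at most 2.11 CPM elsewhere. The 6 T cell markers summed to 62.6 and 66.7 CPM in naive cells and to between 9.06 and 38.3 CPM in the others. Most of that sum was Lck, which measured 29.4 and 32.3 RPKM in naive cells and between 4.49 and 17.3 in every later library. Cd3d, Cd3g, Cd4 and Cd8a had between 12 and 46 counts each in a naive library. Cd3d, Cd4 and Cd8a had lower mean RPKM at every later stage. Cd3g did not, with a mean of 0.44 RPKM in naive cells and 1.15 in plasmablasts, where it had 33 and 27 counts. The 5 B cell markers summed to 8958 and 8683 CPM in the naive libraries, and all 5 were above the floor of 3 counts in every stage. The part of these markers' cells in the naive levels of the 7 genes was not tested. The plasmablast gate showed in its markers: Cd22, the sorted antigen, fell by 7.95 on the log2 scale from expanded cells to plasmablasts, and Sdc1, which encodes CD138, rose by 5.01.

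The other genes of the pathway were counted from 6 lists that held 45 genes, of which 43 were tested. Apex2 is X-linked and was removed with the other X and Y genes, and Shld3 had no row. In the first 3 h 12 of the 43 rose and 7 fell, where 21.0% and 24.3% of all genes did. Rbbp8, an end-resection factor (2.13, SE 0.11), Ptbp2, an RNA-binding protein (2.11, SE 0.29), and Tdg, a thymine DNA glycosylase (2.04, SE 0.12), rose most, beside 2.29 for Ung and 2.12 for Apex1. Of the other 8 tested base excision genes 3 rose and 5 were not DE. Lig3 (1.16) and Rnf8 (1.15) followed. Pagr1a (-1.75), Shld2 (-1.72), Poll (-1.44), Rpa1 (-1.26) and Paxx (-1.14) fell most.

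From 3 h to 10 h 11 of the 43 rose and 3 fell, where 17.4% and 13.4% of all genes did. Rpa3 (1.62), Atm (1.495), Shld2 (1.42), Pagr1a (1.34) and Poll (1.19) rose most. Rbbp8 (-1.93), Dclre1c (-1.05) and Rnf8 (-0.82) fell, so that the early rises of Rbbp8 and Rnf8 were followed by falls, where Ung changed by -0.29 and Apex1 by -0.23 without being DE. The Ku genes Xrcc5 (0.94) and Xrcc6 (1.17), whose proteins bind broken ends, rose here.

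From 10 h to 33 h 12 of the 43 rose and 2 fell, where 10.1% and 4.45% of all genes did. Brca1 rose 8.34-fold (3.06, SE 0.12), the alternative end-joining polymerase Polq 7.73-fold (2.95, SE 0.12), the ligase Lig1 7.71-fold (2.95, SE 0.11), the exonuclease Exo1 5.78-fold (2.53, SE 0.12) and Rpa1, a subunit of the single-strand binding protein, by a log2 fold change of 1.40 (SE 0.08). Smug1 (-1.27), another uracil glycosylase, and Shld1 (-1.04) fell. In the same interval 16 of 17 S phase and division genes rose, with a median log2 fold change of 2.25. The change was 0.83 for Msh6, the one DE gene of the 7.

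The last transitions moved few of the others. From 33 h to expanded cells Nbn, a break-sensing factor, fell 2.00-fold (-0.999, SE 0.10), and the remaining 42 of 43 were not DE, where 7.0% of genes rose and 3.67% fell. From expanded cells to plasmablasts Paxx rose (0.96), and Atm (-1.40) and Rpa1 (-0.86) fell, where 14.0% of genes rose and 12.2% fell. None of the other 8 tested base excision genes was DE at this step, with a median of -0.25, against -0.93 for Ung and -1.59 for Apex1. Mean RPKM was still lower in plasmablasts for Xrcc1 (75.7 to 50.0), Lig1, Polb, Parp1 and Tdg. It was higher for Fen1 (111 to 152), Lig3 and Smug1. The other 9 end-joining genes had log2 fold changes from 33 h to expanded cells with a median of -0.09, none DE, against 1.52 for Lig4. Xrcc4, the partner of Lig4, changed by 0.01 in that interval, from 8.17 and 7.32 RPKM to 7.99 and 7.67. From naive cells to 33 h 22 of the 43 rose and 2 fell, where 22.3% and 20.7% of all genes did. From naive cells to plasmablasts 15 rose and 5 fell, where 26.6% and 23.4% of all genes did.

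**Figure D3:**
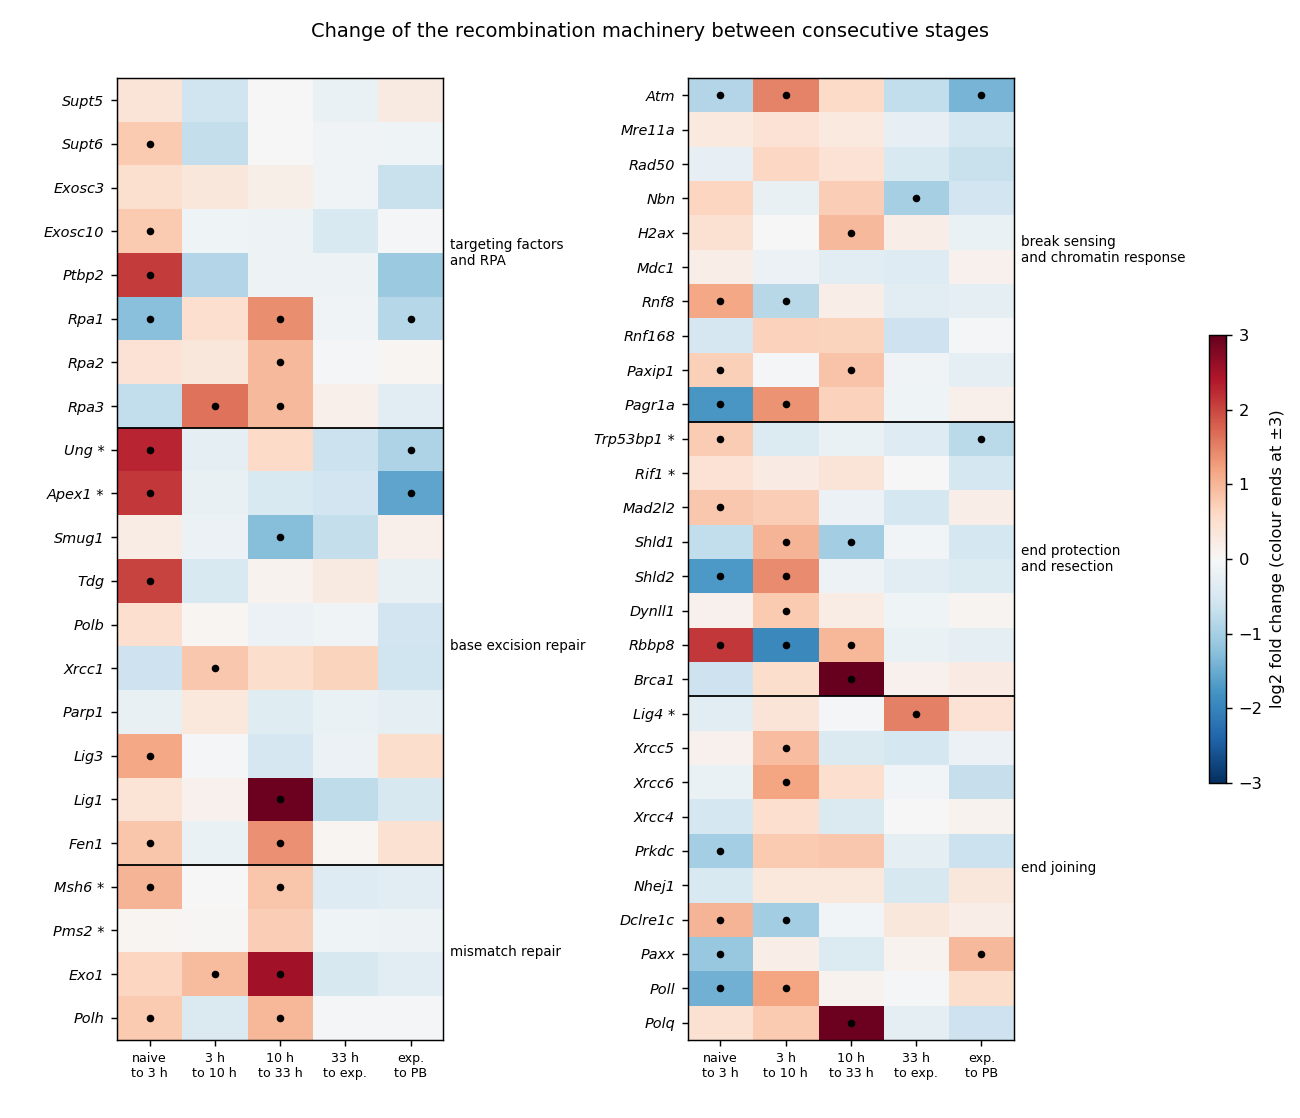
Log2 fold change (colour, red higher in the later stage) of the 7 genes, marked with *, and the other 43 tested pathway genes (rows, by role) at the 5 consecutive transitions (columns; exp., expanded cells; PB, plasmablasts); black dots mark DE genes and the colour scale ends at ±3. Most dots lie in the first 3 columns, and in the fourth column Nbn and Lig4 carry one.

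Transcripts of the heavy chain constant genes Ighg3 and Ighg2b were most abundant at day 4. Ighg3, the constant gene of IgG3, measured 8.56 and 13.8 RPKM at 33 h, 1588 and 2200 in expanded cells and 3966 and 5395 in plasmablasts. Ighg2b measured 18.2 and 25.7, then 459 and 578, then 1544 and 1674. The first step was a log2 fold change of 7.42 (SE 0.24) for Ighg3 and 4.57 (SE 0.15) for Ighg2b. Ighg1 (6.59), Igha (2.10) and Ighm (1.11) also rose from 33 h to expanded cells, Ighd fell (-4.10), and Ighg2c (1.07, adjusted p = 0.343) was not DE. Igha measured 7.21 and 6.63 RPKM in expanded cells, below the 12.1 and 9.68 of the naive libraries. Reads over a constant gene do not separate germline from switched transcripts, and the constant genes are close in sequence, so reads may be split between them. Ighe had at most 12 counts in a library and was not tested.

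**Figure D4:**
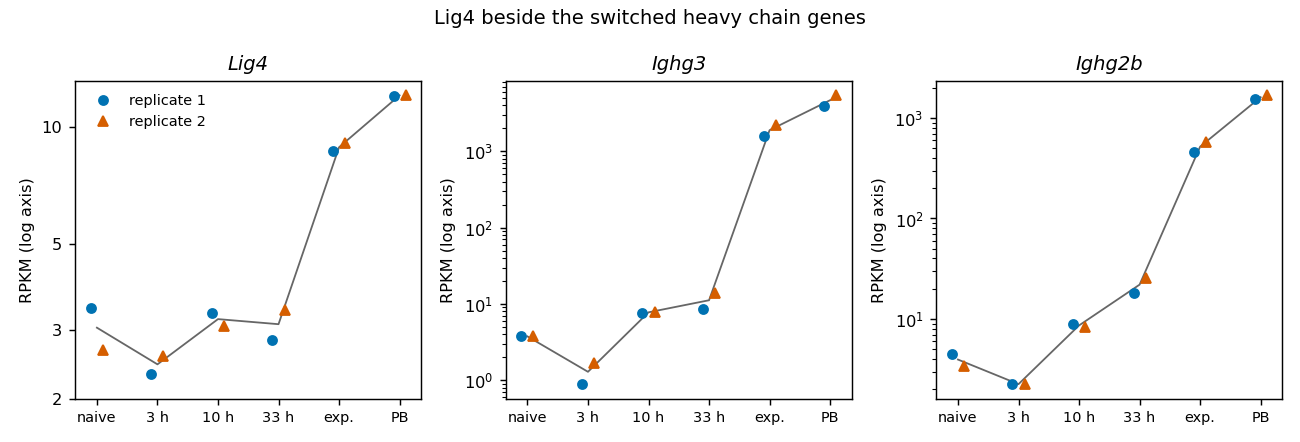
RPKM on log axes of Lig4 and the heavy chain constant genes Ighg3 and Ighg2b in each library by stage (exp., expanded cells; PB, plasmablasts); lines join the stage means. All 3 are higher in the 4 day-4 libraries than in any earlier one.

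The genes with the most similar pattern were found by Pearson correlation of log2 CPM over the 12 libraries among 8621 well-expressed genes. Libraries of one stage share that stage, so r describes 6 stages in duplicate. Apex1 was most like Rrp12 (r = 0.995), Ftsj3 and Rae1, and Ung most like Hnrnpab (0.993), Siah2 and Ipo5. Msh6 was most like Zw10 (0.988), Cops3 and Mybl2, Pms2 most like Lig1 (0.979) and Cenpn, and Rif1 most like Acat2 (0.976), Thoc3 and Orc6. Trp53bp1 was most like the costimulatory receptor Cd40 (0.992), Fam104a and Cd86. Lig4 was most like Ighg3 (0.989), Ighg2b (0.976) and Gnaz (0.974). Among the 7 themselves the closest pair was Msh6 and Rif1 (r = 0.92), followed by Apex1 and Trp53bp1 (0.90), and the most opposed were Trp53bp1 and Lig4 (-0.89). Ung and Apex1, which act in succession, had r = 0.77, and the partners Trp53bp1 and Rif1 had r = -0.07.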

How the data were processed

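RNA was sequenced from 12 libraries (TruSeq RNA kit, taken as not marking strand; paired reads of 81 bases). Per the study's methods and labels, reads were aligned to mm10 with Rsubread 1.28.0 and counted per Entrez gene with featureCounts, and CASAVA 1.8.2 is listed among the tools. The values the authors deposited are raw counts per gene, with exon length; the 12 single-library files held the same counts as the series table and were used for that check only. Libraries were grouped by their labels.

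Of 27179 identifiers, 25275 matched RefSeq (GRCm38.p6). Unmatched identifiers (1904), immunoglobulin variable segments (226), rRNA (33), mitochondrial (15) and X or Y genes (1279) were removed, which kept between 84.1% and 90.6% of the counts per library, and filterByExpr left 12767 genes. In edgeR 4.0.16 (R 4.3.3, limma 3.58.1), counts were TMM-scaled, and a one-way layout of all 12 libraries was fitted by robust quasi-likelihood and tested with glmTreat against 1.5-fold. RPKM was computed from the counts, exon length and TMM-scaled library size. Every member had at least 170 counts in every library. Log2 CPM for correlations used a prior count of 2.

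All 7 genes were named throughout. Of the other pathway genes, up to 5 with the largest rise and 5 with the largest fall among the DE genes were named per transition, with the heavy chain constant genes. For likeness, up to 3 genes with the highest r among those above an average log2 CPM of 3 were named. Some listed genes and a surface marker of the sort are not reported here and are left out of the counts. Other genes (the protein partners, cell markers and genes next to or overlapping the 7) were named for that relation after their values were seen. The members and lists were chosen with earlier results of these data known. The fit was also run on simulated counts with changes set between expanded cells and plasmablasts. All of these changes were larger than the fold threshold, so the simulation does not cover changes near 1.5-fold. DESeq2 1.42.0, other scalings and filters, a replicate block and leaving out each library were the alternatives.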

Additional observations from a re-analysis of the deposited data

How the results depend on the processing

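The counts of DE genes among the 7 stayed within 1.5 times their main values except as follows. With the F-test, which has no fold threshold, 4 genes were called from 3 h to 10 h, 5 from 10 h to 33 h, 5 from 33 h to expanded cells, 6 from expanded cells to plasmablasts and 7 from naive cells to plasmablasts. The DESeq2 Wald test called 0 from 10 h to 33 h, and leaving out libraries gave between 0 and 1 there, 0 without 10 h replicate 2 or 33 h replicate 2. Over all single results, 490 kept their direction and side of the threshold under other settings and 556 with a library left out; 11 and 10 lost the call, 22 and 1 gained it, and 16 and 21 changed sign.

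No changed sign belonged to a call. Pms2 from 3 h to 10 h was -0.052 with DESeq2 size factors and -0.054 by the Wald test, and from naive to 3 h -0.15 with unscaled library sizes and -0.013 with at least 10 counts in every library. Lig4 from naive to 33 h was -0.032 with DESeq2 size factors, -0.033 by the Wald test and -0.027 with at least 10 counts. With unscaled library sizes, Ung, Apex1 and Msh6 from 3 h to 10 h were 0.041, 0.099 and 0.33, and Rif1 from 33 h to expanded cells was -8.6e-06. Rif1 in that step was -0.030 with no filter and -0.0072 with the removed genes kept, and Msh6 from 3 h to 10 h was 0.017, 0.013 and 0.020 with no filter, at least 10 counts and the removed genes kept. With libraries left out, log2 fold changes ranged from -0.11 to 0.12 for Msh6 and -0.13 to 0.22 for Pms2 (3 h to 10 h), -0.16 to 0.22 for Pms2 (naive to 3 h), -0.17 to 0.079 and -0.13 to 0.22 for Lig4 (10 h to 33 h and naive to 33 h), and -0.062 to 0.070 for Rif1 (33 h to expanded). The cause was not tested.

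Libraries with the same replicate number showed no shared effect: correlations of replicate differences over 15 pairs of stages ran from -0.14 to 0.08. Such correlations cannot show whether libraries of the same number came from the same mice or culture. The replicate block changed no call of the 7 genes. With a prior count of 0.5, Tmem189 took the place of Gnaz beside Lig4. Unscaled library sizes moved the median of all genes by -0.21 from naive to 3 h, 0.33 from 3 h to 10 h, -0.34 from expanded cells to plasmablasts and -0.28 from naive cells to plasmablasts. With 2 libraries a stage, a change near 1.5-fold was not always resolved.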
